A study of Mus musculus with 20 samples.

Results

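The genes described here encode the mouse major histocompatibility complex (MHC) class II molecules and the proteins that load them: H2-Aa, H2-Ab1, H2-Eb1, H2-DMa, Cd74 and Ciita. They were taken by name from a list of 6 class II genes, and 5 of the 6 were found among the 12701 genes of the count table by matching Ensembl identifiers to GENCODE symbols. Ciita, which encodes the master transcriptional activator of class II genes, was not analysed here. RNA came from a short segment of proximal colon (PC) of 20 C57BL/6 mice. From weaning all mice, controls included, ate the Total Western Diet (TWD), which mimics typical American intake. After 6 weeks on it, 5 mice stayed on the TWD alone (0% RPS), and 5 mice each received the TWD with 2, 5, or 10% raw potato starch (RPS), a source of resistant starch that escapes digestion and reaches the large bowel, for 3 more weeks. The segment was whole tissue, so epithelium, immune cells, and muscle were sequenced together, and fewer cells of a type cannot be told apart from less RNA per cell. Nothing in the labels ties mice to cages or litters, and each library was treated as 1 mouse. The members' levels are given over the 4 diets with and without 1 library, 0% RPS replicate 2, which the choice of these genes named as the highest for them.

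MHC class II molecules are heterodimers of an alpha and a beta chain that present peptides from endocytosed proteins to CD4+ T cells. Dendritic cells, B cells, and macrophages express them constitutively, and intestinal epithelial cells can be induced to express them by interferon-gamma. In the endoplasmic reticulum the new dimers bind the invariant chain, Cd74, which blocks the peptide groove and routes them to endosomes. Cathepsins and the asparagine endopeptidase Lgmn digest the invariant chain and antigen there, and the H2-DM dimer exchanges the remaining fragment for antigenic peptide. C57BL/6 mice display H2-A (H2-Aa with H2-Ab1) but no H2-E, because their H2-Ea gene is defective, although H2-Eb1, the H2-E beta chain, is transcribed.

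Of the 5 genes, all protein-coding, 4 lie in the MHC on chromosome 17 of assembly GRCm39. H2-Ab1 (ENSMUSG00000073421) spans chr17:34476663-34488393 on the plus strand. Beside it H2-Aa (ENSMUSG00000036594) spans chr17:34493404-34506798 on the minus strand. H2-Eb1 (ENSMUSG00000060586), at chr17:34504236-34535648 on the plus strand, overlaps H2-Aa and Gm20513 on the other strand. H2-DMa (ENSMUSG00000037649), at chr17:34338515-34358958 on the plus strand, overlaps Brd2 on the other strand. Whether the counting used strand is not given in the sources used here. Of all windows of 50 bases, the read length, along the spliced transcripts, 4.79% of those of H2-Eb1 and 9.55% of those of H2-DMa also occurred in a gene on the opposite strand, against 2.03% for H2-Aa and 0% for H2-Ab1 and Cd74. The counts of H2-Eb1 and H2-DMa are therefore less certain than those of H2-Ab1.

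Class II promoters are known for a shared module in which an X box and a Y box bind the RFX and NF-Y complexes that recruit Ciita. The RefSeq promoter table, whose build is GRCm38.p6, held entries for H2-Aa, H2-Eb1, and H2-DMa. Entries for H2-Ab1, Cd74, and Ciita were not matched. The stretches from 150 to 29 bases before the start of H2-Aa and H2-Eb1, the most alike across libraries of the members with an entry, are shown 5′ to 3′ on the strand of the gene. They were placed on GRCm39 by exact match at chr17:34506826-34506947 (minus strand) and chr17:34524691-34524812 (plus strand). Capitals mark the Y core, searched as GATTGG on both strands and read as CCAATC where it lies on the other strand.
H2-Aa: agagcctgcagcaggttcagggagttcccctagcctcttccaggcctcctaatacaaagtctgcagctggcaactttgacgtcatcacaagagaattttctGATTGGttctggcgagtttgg
H2-Eb1: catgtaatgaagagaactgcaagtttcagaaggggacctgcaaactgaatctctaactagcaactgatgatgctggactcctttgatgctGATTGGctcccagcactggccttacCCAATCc

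A Y core began 49 bases before the start of H2-Aa. In H2-Eb1 there was 1 on the gene's strand at 60 bases and 1 on the other strand at 35 bases before the start. These letters occurred in 16.1% of 32851 promoter windows of 300 bases on either strand, so a match is a description and not a mapped site. The first of the H2-DMa promoters held no Y core, and the second held 1 at 199 bases before the start. An X core, searched as CCNAGNNAC on both strands and present in 17.3% of windows, was found in H2-Aa at 180 bases before the start, outside the stretch shown. The arrangement of an X core followed within 40 bases by a Y core, present in 0.317% of windows, matched in the promoter of H2-DMb1. It matched in none of the members with an entry. Only exact matches to these letters were counted, so a missing match does not show that a promoter lacks an X box.

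Total counts per library ranged from 20581013 to 35083751, and a floor of 3 counts corresponded to between 0.0855 and 0.146 counts per 1000000 counts (CPM). Every member lay far above this floor in every library, so depth did not limit its detection. Levels between genes were compared as CPM per kilobase of annotated exon. Cd74 was the most abundant at 43.0 ± 14.4 (SD, n = 20). H2-Ab1 followed at 19.6 ± 5.71 and H2-Eb1 at 18.7 ± 5.79. Within libraries H2-Ab1 stood above H2-Eb1 in 15 of 20, at a median ratio of 1.06 with a range of 0.933 to 1.17, so the order of this pair was not resolved. H2-Aa, the partner chain of H2-Ab1, reached 12.6 ± 3.65 CPM per kilobase and lay below H2-Eb1 in all 20 libraries. Its annotated exons add up to 4292 bases against 2568 for H2-Ab1, which lowers a value per kilobase where long transcripts are rare.

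The peptide exchange factors were scarcer. H2-DMb1, the beta chain of H2-DM, was at 2.59 ± 0.647 CPM per kilobase, and its alpha chain H2-DMa was at 2.41 ± 0.295. H2-DMb1 exceeded H2-DMa in 14 of 20 libraries, and the ratio ranged from 0.738 to 1.57, so their order was not resolved either. H2-DMb2, a second beta chain gene next to H2-DMb1 with a closely similar sequence, was lowest at 0.939 ± 0.399. Reads shared by H2-DMb1 and H2-DMb2 may have been split between them in counting, and their values are uncertain for that reason. H2-Oa, H2-Ob, H2-Ea, and H2-Eb2 were not analysed here.

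H2-Aa is the alpha chain of H2-A. Its normalised read counts, which are counts divided by DESeq2 size factors, were 1485, 3015, 888, 1492, and 1386 in the 0% RPS replicates 1 to 5. The corresponding counts were 1349, 1400, 1095, 1548, and 1243 on 2% RPS. Replicate 2 on 0% RPS stood at 2.15 times the median of the other 19 libraries, and replicate 3 was the lowest of the 20. On 5% RPS they were 1407, 1363, 1454, 1161, and 1443, and on 10% RPS 1338, 1317, 1567, 1547, and 1679. Every library of the starch diets lay between the lowest and the highest control library. The means were 1653 ± 801 on 0% RPS, 1327 ± 170 on 2% RPS, 1366 ± 120 on 5% RPS, and 1490 ± 157 on 10% RPS (SD, n = 5 each). Without replicate 2 the control mean was 1313 ± 287 (n = 4), below those of the starch diets.

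H2-Ab1, its beta chain partner, had normalised counts of 1362, 2757, 808, 1203, and 1316 on 0% RPS. The 2% RPS libraries were at 1305, 1396, 952, 1337, and 1161. The ends of the range were again set by control replicates 2 and 3. The 5% RPS libraries were at 1251, 1253, 1528, 1116, and 1324, and the 10% RPS libraries at 1347, 1078, 1423, 1529, and 1685. Means were 1489 ± 742, 1230 ± 178, 1294 ± 151, and 1412 ± 226 in order of dose. The control mean without replicate 2 was 1172 ± 252, the lowest of the 4 diets.

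H2-Eb1, the H2-E beta chain, had normalised counts of 1282, 2822, 792, 1303, and 1189 on 0% RPS. Counts on 2% RPS were 1148, 1301, 1009, 1423, and 1213. As for H2-A, 1 control mouse was far above and 1 below all other mice. Counts on 5% RPS were 1233, 1193, 1326, 1073, and 1282, and those on 10% RPS were 1209, 1070, 1280, 1454, and 1532. The control mean moved from 1478 ± 779 to 1142 ± 238 when replicate 2 was left out, while the starch diets had means of 1219 ± 156, 1222 ± 96.8, and 1309 ± 186.

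Cd74, the invariant chain, is not a subunit of the surface molecule but its chaperone. The gene (ENSMUSG00000024610) lies outside the MHC, at chr18:60936899-60945731 on the plus strand of GRCm39, and 1.29% of its windows also occurred in 1 other gene on the same strand. Its normalised counts were 3181, 6482, 1637, 2576, and 2520 on 0% RPS and 2675, 2700, 2063, 3224, and 2552 on 2% RPS. The value in control replicate 2 was 2.41 times the median of the other 19 libraries, the highest ratio among the members. On 5% RPS they were 2687, 3037, 3317, 2235, and 2414, and on 10% RPS 2962, 2573, 3017, 3339, and 3204. Means were 3279 ± 1873 on 0% RPS, 2643 ± 415 on 2% RPS, 2738 ± 443 on 5% RPS, and 3019 ± 291 on 10% RPS. Without replicate 2 the control mean was 2479 ± 636.

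H2-DMa forms the peptide exchange factor with H2-DMb, and it stood out less in that control library. Its normalised counts were 303, 337, 279, 260, and 236 on 0% RPS and 252, 297, 219, 282, and 315 on 2% RPS. Replicate 2 was at 1.21 times the median of the others and was exceeded by 1 library on 10% RPS. Counts on 5% RPS were 275, 223, 290, 254, and 295, and counts on 10% RPS were 310, 279, 315, 267, and 358. Means were 283 ± 38.9, 273 ± 38.0, 267 ± 29.6, and 306 ± 35.5 in order of dose. All 4 diets overlapped.

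**Figure D1:**
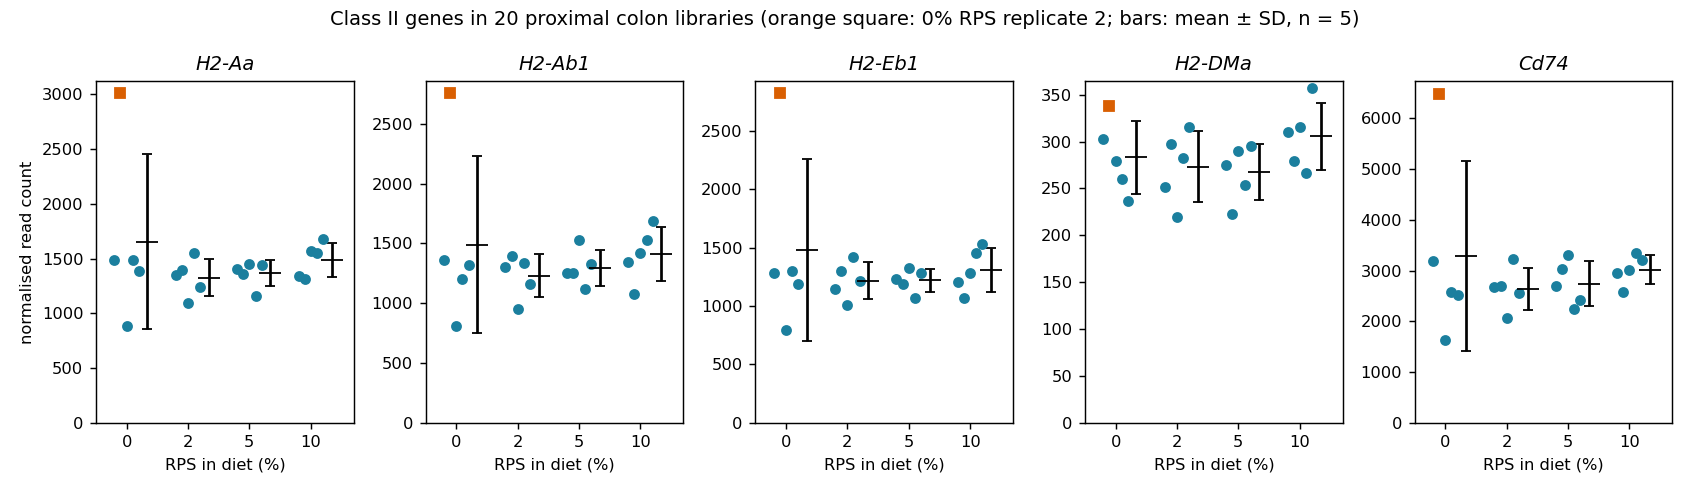
Normalised read counts (y axes from 0) of the 5 class II genes in each library by the percentage of RPS in the diet, with mean ± SD beside each diet (n = 5). The orange square is 0% RPS replicate 2, at 3015 for H2-Aa and 6482 for Cd74 and above all other libraries for every gene but H2-DMa.

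The spread within a diet differed between the control and starch diets. The coefficient of variation of H2-Aa was 48.4% on 0% RPS against 8.79 to 12.8% on the starch diets, and that of Cd74 was 57.1% against 9.64 to 16.2%. Without replicate 2 the control values were still 21.9% for H2-Aa and 25.7% for Cd74, since replicate 3 was the lowest library for both. For H2-DMa the control coefficient was 13.7%, within the range of the other diets. These spreads are descriptions and were not tested.

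No member was called different between any starch diet and 0% RPS. The thresholds were those of the study, a Benjamini-Hochberg adjusted p from DESeq2 up to 0.05 together with a change of at least 1.5-fold, up or down. The 3 comparisons share the same 5 control libraries, so their values are given side by side and are not independent. On 2% RPS the members' log2 fold changes ran from -0.32 to -0.05, with a median of -0.28 against -0.0077 over all genes. H2-Aa was at -0.32 ± 0.21 (SE, 95% interval -0.72 to 0.085, adjusted p = 0.657) and Cd74 at -0.31 ± 0.24 (interval -0.78 to 0.15, adjusted p = 0.718). The called count was 0 of 5, where 0.0239% of all genes were called, and 0 of 5 had an unadjusted p under 0.05 where 1093 genes did. By edgeR the count was also 0 of 5, with 0% of all genes called.

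On 5% RPS the estimates were again all below 0. H2-Aa was at -0.28 ± 0.20 (interval -0.68 to 0.13, adjusted p = 0.506), the lowest adjusted p of the 5, and H2-Ab1 was at -0.20 ± 0.22 (adjusted p = 0.668). The median was -0.26 against -0.0091 over all genes. Again 0 of 5 were called, against 0.438% of all genes, and 0 of 5 passed an unadjusted p of 0.05. By edgeR 0 of 5 and 0.0566% of all genes were called.

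On 10% RPS H2-DMa turned to 0.11 ± 0.12 (interval -0.13 to 0.35, adjusted p = 0.648). The other members stayed below 0, from -0.17 ± 0.22 for H2-Eb1 (interval -0.60 to 0.25, adjusted p = 0.696) to -0.08 ± 0.22 for H2-Ab1 (interval -0.50 to 0.35, adjusted p = 0.876). The called count was 0 of 5 by DESeq2, against 0.917% of all genes, and 0 of 5 by edgeR, against 0.323%. None had an unadjusted p under 0.05 by DESeq2, where 2365 of all genes did. These misses do not show that the diets were alike: as fold changes the intervals on 10% RPS reached from 0.682 to 1.19 for H2-Aa and from 0.668 to 1.27 for Cd74.

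Leaving out 0% RPS replicate 2 turned most of these estimates. On 2% RPS all 5 were then above 0, from 0.017 for H2-Aa to 0.095 for H2-Eb1 (adjusted p from 0.855 to 0.986). On 5% RPS H2-Ab1 was at 0.14 ± 0.15 and Cd74 at 0.14 ± 0.16, and only H2-DMa stayed below 0, at -0.012 ± 0.12. Standard errors of the subunit genes and Cd74 lay between 0.13 and 0.16, against 0.20 to 0.24 with all libraries. On 10% RPS the estimates were 0.18 ± 0.13 for H2-Aa, 0.27 ± 0.15 for H2-Ab1, 0.20 ± 0.14 for H2-Eb1, 0.18 ± 0.12 for H2-DMa, and 0.29 ± 0.16 for Cd74. The lowest adjusted p among them was 0.274, for Cd74, whose interval of -0.024 to 0.59 corresponds to 0.983 to 1.51 times the control level. No member was called without this library in any of these comparisons, against 0.0398% of all genes on 2% RPS, 0.844% on 5% RPS, and 1.63% on 10% RPS. The direction of the members against 0% RPS therefore depended on 1 of 5 control mice, except for H2-DMa on 5 and 10% RPS. The library left out was named as the highest for them, so leaving it out was bound to raise the estimates. The lowest control library of the subunit genes and Cd74, 0% RPS replicate 3, was kept, and the turned direction is no test. Leaving out 2% RPS replicate 3 turned H2-DMa to 0.0187 on 2% RPS, and leaving out 10% RPS replicate 2 turned H2-Ab1 to 0.0066 on 10% RPS.

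**Figure D2:**
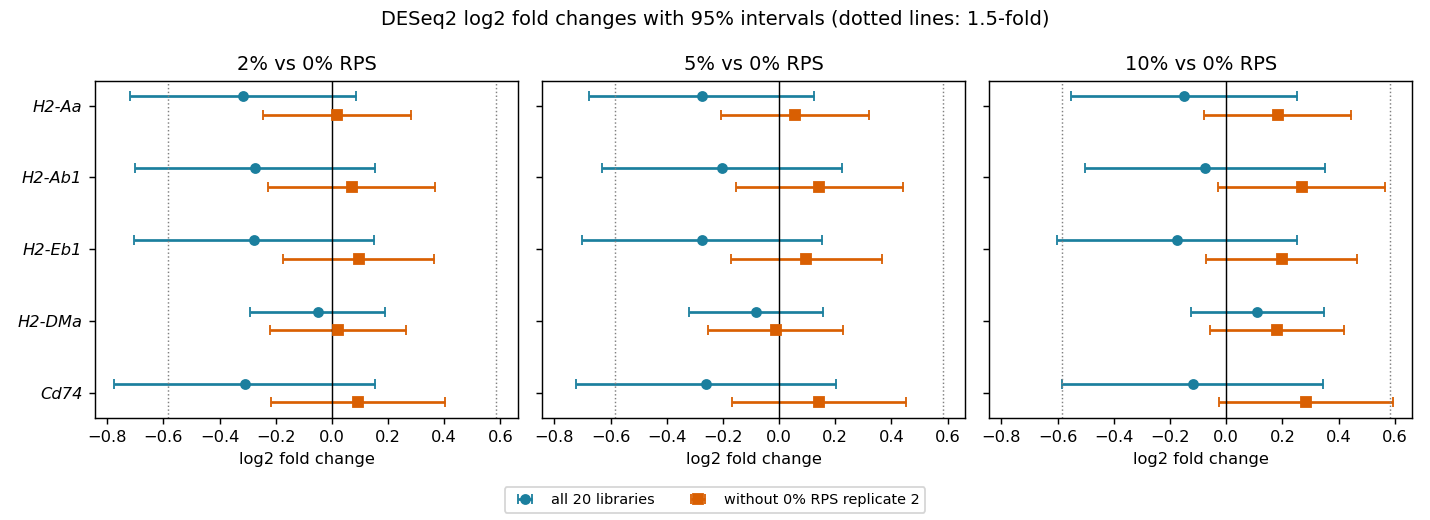
DESeq2 log2 fold changes (x axes) of the 5 class II genes for 2, 5, and 10% RPS against 0% RPS with 95% intervals, from all 20 libraries (blue circles) and without 0% RPS replicate 2 (orange squares). Every interval crosses 0, and on 10% RPS the estimate for Cd74 moves from -0.12 to 0.29.

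A linear trend over the percentage of RPS was called for none of the members, at an adjusted p of 0.05 or less with no fold threshold. With all libraries the slopes, in log2 units per percentage point of RPS, lay between -0.011 for H2-Eb1 and 0.012 for H2-DMa (adjusted p from 0.597 to 0.999). By DESeq2 4.29% of all genes were called and by edgeR 1.34%, and 0 of 5 members by either. None had an unadjusted p under 0.05 with DESeq2 on all libraries, as against 2397 of all genes. Without 0% RPS replicate 2 all slopes were above 0, from 0.017 ± 0.012 for H2-Eb1 to 0.027 ± 0.014 for Cd74. Leaving out the control library named as their highest was bound to raise the slopes, so their sign there is no test. Without that library H2-Ab1, at 0.026 ± 0.013 (interval 0.0003 to 0.052), had an unadjusted DESeq2 p of 0.0471 and an adjusted p of 0.231. An unadjusted p under 0.05 was then found for 1 of 5 members and for 2635 of the 12701 genes, so this count was near the background. Of all genes 6.43% were called there. Over the 2, 5, and 10% diets alone, which use no control library, the slopes of the 5 genes were also above 0, between 0.013 ± 0.013 for H2-Eb1 and 0.025 ± 0.015 for H2-Ab1, with adjusted p from 0.496 to 0.751.

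The subunit genes and Cd74 varied together from mouse to mouse. H2-Aa varied 3.39-fold across the 20 libraries, while its ratio to H2-Eb1 within a library stayed between 1.03 and 1.23 and its ratio to H2-Ab1 between 0.952 and 1.24. In 0% RPS replicate 2 these ratios were 1.07 and 1.09, inside the range of the other libraries. The ratio of H2-Aa to H2-DMa, by contrast, ran from 3.18 to 8.94 and was highest in that library. Pearson correlations of log2(normalised count + 1) were computed for the 10 pairs of members over 20 libraries, with permutation p-values adjusted over the 10 pairs. Among H2-Aa, H2-Ab1, H2-Eb1, and Cd74 they ran from r = 0.947 (H2-Eb1 with Cd74) to r = 0.980 (H2-Aa with H2-Eb1). All 6 of these had an adjusted permutation p of 1.67e-05, which comes from 1.0e-05, the smallest p that 100000 permutations can give. Spearman's rho for these pairs lay between 0.787 and 0.901. The choice of the members named 0% RPS replicate 2 as their highest library, so part of this shared variation was fixed in advance. How many other gene pairs vary together as closely was not tested.

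The pairs with H2-DMa were weaker, from r = 0.466 with Cd74 (adjusted permutation p = 0.0377, rho = 0.432, adjusted permutation p of rho = 0.0597) to r = 0.537 with H2-Ab1 (adjusted permutation p = 0.0192, rho = 0.593). With the 2 libraries farthest from the median of the first gene left out, the 6 pairs among the subunit genes and Cd74 kept r between 0.773 and 0.899. The pair of H2-DMa and Cd74 then had r = 0.398 with a permutation p of 0.0998. Without 0% RPS replicate 2 the 6 pairs had r between 0.878 and 0.949, and the 4 pairs with H2-DMa had r between 0.340 and 0.449 and no longer passed, with adjusted permutation p from 0.0780 to 0.155. With the diet means removed, the 6 pairs lay between 0.948 and 0.983. H2-Aa and H2-Eb1 overlap on opposite strands, which could add shared reads to that pair, and this was not tested.

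**Figure D3:**
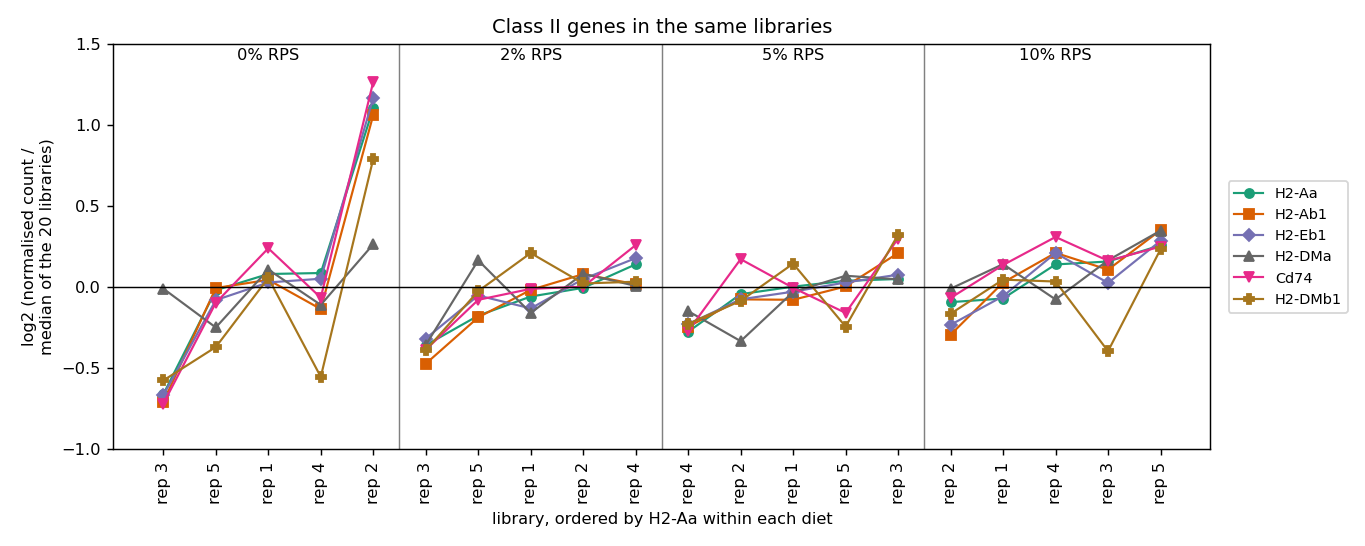
Log2 of the normalised count over the median of the 20 libraries (y axis) for the 5 class II genes and H2-DMb1 in each library, ordered by H2-Aa within a diet. H2-Aa, H2-Ab1, H2-Eb1, and Cd74 follow each other in every diet, with 0% RPS replicate 2 highest and replicate 3 lowest, while H2-DMa stays closer to 0 in both.

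The genes most like the members were sought among 12331 other named genes whose normalised counts averaged 10 or more, by the correlation of log2(normalised count + 1) with the mean centred profile of the 5 members. These correlations are descriptions over libraries that share depth and tissue content. Over 20 libraries the likest were Abcc4 (r = 0.907), an anion and nucleotide exporter, and Laptm5 (r = 0.883), a lysosomal membrane protein of blood cells. The complement genes C1qb (r = 0.875), C1qa (r = 0.869), and C1qc (r = 0.861), made by macrophages, came next. They were followed by the immunoglobulin constant genes Igkc (r = 0.859) and Igha (r = 0.858), the myeloid lysozyme Lyz2 (r = 0.857), the macrophage pore protein Mpeg1 (r = 0.849), and the endothelial gene Plvap (r = 0.843). Over the 19 libraries without 0% RPS replicate 2, 3 of these 10 were again in the first 10. They were Laptm5 (r = 0.846), Abcc4 (r = 0.819), and C1qa (r = 0.727). The others there were Palmd, H6pd, the inhibitory Fc receptor Fcgr2b (r = 0.759), Adgrf5, the immunoglobulin segment Ighv7-3 (r = 0.736), Gata5, and 2510009E07Rik. H2-DMb1 had r = 0.792 over 20 and r = 0.636 over 19 libraries.

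Many other genes also stood apart in 0% RPS replicate 2. It was the highest of the 20 libraries for 13.9% of the 12348 genes whose normalised counts averaged 10 or more, and at least 2-fold above the median of the others for 2.20%. The library was named in the choice of the members, so their own place in it, highest for 4 of 5 and at least 2-fold above for the same 4, is no test. Its total count was within the range of the others. By a list of 9 macrophage markers analysed of 11 and led by Mertk, Lyz2, and Csf1r, 8 genes were highest in it, with C1qb 2.51-fold and Adgre1 2.07-fold above the median of the others. Mertk, the most abundant of that list and also expressed outside macrophages, was the lowest of the 20 there at 0.646 times the median. Of 7 plasma cell markers analysed of 8 and led by Igha, Txndc5, and Sdc1, 4 were highest in it. Igha was 4.30-fold and Jchain 3.96-fold above the median, while Txndc5 (1.13) and Sdc1 (1.03) were close to it. Of the 26 class II pathway genes other than H2 genes, 4 were highest in this library and none was 2-fold above. Both counts were near the shares of 13.9% and 2.20% over all genes. Their median ratio was 1.02, against 1.0 over all genes.

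**Figure D4:**
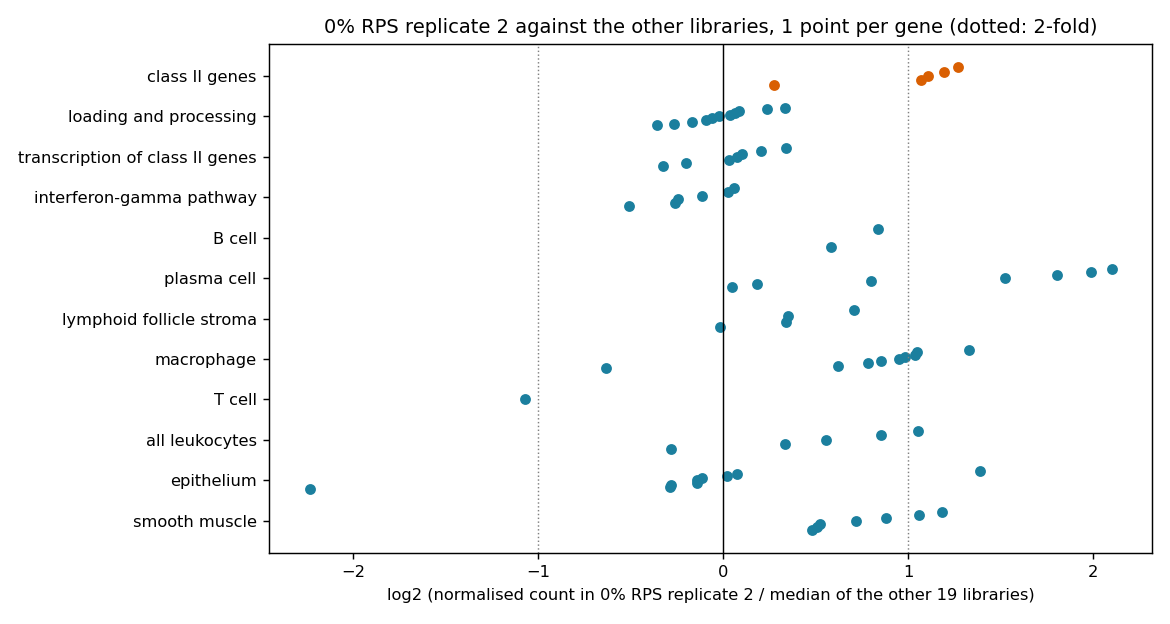
Log2 ratio of the normalised count in 0% RPS replicate 2 to the median of the other 19 libraries (x axis), 1 point per gene, by list. The 4 class II genes beyond 2-fold sit beside some of the plasma cell, macrophage, and smooth muscle markers, 1 leukocyte marker, and 1 epithelial marker. The loading and transcription lists lie around 0, and the interferon-gamma list lies mostly below 0, at a median ratio of 0.883.

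The summed level of each marker list was set beside the members. For macrophages the sum was 185 to 315 CPM on 0% RPS, 190 to 234 on 2% RPS, 195 to 211 on 5% RPS, and 194 to 227 on 10% RPS. The plasma cell list ran from 1068 to 3165, 962 to 1637, 1045 to 1458, and 1143 to 1804 CPM in order of dose. In both, the highest control value was replicate 2, and the other 4 control libraries reached 237 CPM for macrophages and 1221 CPM for plasma cells. Within the plasma cell sum Igha, Txndc5, and Sdc1 averaged 576.2, 421.5, and 234.2 CPM. The general leukocyte list (5 of 6 analysed, led by Laptm5, Coro1a, and Cd52) ran from 27.4 to 62.9 CPM on 0% RPS and from 31.1 to 52.3 over the starch diets, again with replicate 2 at the top. No analysed marker of these lists was at 0, though Mzb1, at 0.0285 to 0.317 CPM, reached below the floor of 3 counts. The part of macrophages, plasma cells, or other leukocytes in the members' levels was not tested.

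Markers of the dendritic cells were not analysed here, and B and T cells were represented by few genes. The B cell receptor chains Cd79a and Cd79b, 2 of 12 B cell markers, summed to 1.32 to 7.17 CPM on 0% RPS, 2.67 to 9.26 on 2% RPS, 2.02 to 12.3 on 5% RPS, and 3.20 to 7.94 on 10% RPS. Cd79a was below the threshold on 10% RPS with all libraries (log2 fold change 0.92 ± 0.46, adjusted p = 0.246). Without 0% RPS replicate 2 it passed by DESeq2 (1.35 ± 0.45, adjusted p = 0.0416) and not by edgeR (adjusted p = 0.113). That library was the highest control for Cd79a, so leaving it out was bound to raise the estimate, and the pass is no test. By DESeq2 1.63% of all genes were called there. The T cell receptor gene Trbc2, 1 of 10 T cell markers, was at 0.713 to 2.15 CPM on 0% RPS and 0.904 to 2.33 on the starch diets, and was lowest in replicate 2. Genes of lymphoid follicle stroma, 4 of 7 analysed and led by Ccl21a, Cxcl13, and Madcam1, summed to 18.98 to 30.55 CPM on 0% RPS and 18.0 to 26.5 on the starch diets, with replicate 2 at 30.2.

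The non-immune compartments differed in the same library. Smooth muscle markers, 7 of 7 analysed and led by Myh11, Acta2, and Actg2, summed to 10931 CPM in 0% RPS replicate 2 against 4981 to 7434 in the other control libraries. They reached 4392 to 9562 on 2% RPS, 4417 to 6904 on 5% RPS, and 5101 to 8255 on 10% RPS. The epithelial list, 9 of 9 analysed and led by Car1, Krt8, and Krt19, summed to 15763 CPM in replicate 2 against 20441 to 27444 in the other controls and 22593 to 30279 over the starch diets. Car1, a colonocyte carbonic anhydrase, made up most of this gap at 0.212 times the median of the others, while Krt8 (0.906) and Krt19 (1.05) were close to it. Slc26a3, the colonic chloride exchanger, was 2.62-fold above. These last values were chosen after they were seen, and the part of tissue composition in the members' levels was not tested.

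The other genes of the pathway were taken from 5 lists, of which 28 genes were analysed. On 2% RPS 0 of 28 were called by DESeq2 and 0 by edgeR, where 0.0239% and 0% of all genes were called. An unadjusted DESeq2 p under 0.05 was found for 1 of 28 and for 1093 of the 12701 genes. On 5% RPS 1 rose and none fell by DESeq2, where 0.438% of all genes were called, and edgeR called 0, where it called 0.0566% of all genes. On 10% RPS both tools called 0, against 0.917% of all genes by DESeq2 and 0.323% by edgeR, and 2 passed the adjusted p by DESeq2 without reaching 1.5-fold. There 7 of 28 had an unadjusted DESeq2 p under 0.05, as did 2365 of the 12701 genes of the table, so this count was near the background. The trend was called for 2 by DESeq2, 1 in each direction, and for 1 by edgeR, against 4.29% and 1.34% of all genes, and is likewise no result about the list. Medians of the 28 log2 fold changes were 0.010, 0.032, and 0.044 in order of dose, against -0.0077, -0.0091, and 0.0000 over all genes.

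Lgmn, the asparagine endopeptidase, rose on 5% RPS. Its normalised counts were 2581, 2190, 1956, 2455, and 2328 on 0% RPS and 3958, 4460, 4416, 2474, and 3084 on 5% RPS. All 5% RPS libraries but replicate 4 exceeded every control library. The log2 fold change was 0.68 ± 0.15 (interval 0.37 to 0.98, adjusted p = 0.00399 with DESeq2, 0.0645 with edgeR), and so did not pass with edgeR. On 10% RPS counts were 2810, 3612, 3231, 3380, and 4005, above all controls, with a log2 fold change of 0.57 ± 0.15 (adjusted p = 0.0138) that fell short of the fold threshold. On 2% RPS the value was 0.27 ± 0.15 (adjusted p = 0.617). Without 0% RPS replicate 2 the 5% value was 0.66 ± 0.16 (adjusted p = 0.00671). The trend for Lgmn was 0.056 ± 0.017 per percentage point (adjusted p = 0.0262 with DESeq2, 0.0930 with edgeR). It missed the threshold without 0% RPS replicate 3 (0.0502), 4 (0.0581), or 5 (0.0706), or without 10% RPS replicate 5 (0.0993), and over the 2, 5, and 10% diets alone (0.633).

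Ctsf, cathepsin F, is known for invariant chain processing in macrophages, and its trend with dose was downward. Normalised counts were 681, 546, 581, 656, and 940 on 0% RPS and 483, 480, 401, 488, and 455 on 10% RPS, and the groups did not overlap. Intermediate diets had means of 570 ± 47.0 on 2% RPS and 519 ± 41.9 on 5% RPS, between 681 ± 155 on 0% and 462 ± 36.1 on 10% RPS. The log2 fold change on 10% RPS was -0.56 ± 0.12 (adjusted p = 0.000837 with DESeq2, 0.0307 with edgeR), which is less than 1.5-fold. Without 0% RPS replicate 2 it was -0.63 ± 0.12 (adjusted p = 4.31e-05), which passes both thresholds, and it also passed them without 0% RPS replicate 3 (-0.61). When the highest library, 0% RPS replicate 5, was left out, it was -0.41 (adjusted p = 0.0021) and the slope -0.041 (adjusted p = 0.000343), so the adjusted p still passed and the size was smaller. The slope was -0.052 ± 0.011 per percentage point (adjusted p = 0.00128 with DESeq2, 0.0246 with edgeR), and -0.038 ± 0.010 (adjusted p = 0.0256) over the 2, 5, and 10% diets alone.

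Without 0% RPS replicate 2 the trends of Ctsz, another lysosomal cathepsin (0.036 ± 0.011, adjusted p = 0.0342), and Jak1 (0.013 ± 0.0043, adjusted p = 0.0348) were also called by DESeq2 but not by edgeR. The remaining processing genes were not called in any of the 4 comparisons with all libraries. Among the most abundant, the broad lysosomal protease Ctsb was at 0.046 ± 0.051 on 10% RPS (adjusted p = 0.651). Sppl2a, which cleaves the invariant chain stub in the membrane, was at 0.034 ± 0.096 (adjusted p = 0.873), and Ctss, the main invariant chain protease of antigen-presenting cells, was at 0.048 ± 0.10 (adjusted p = 0.832). These intervals were narrow compared with those of the subunit genes and Cd74. H2-DMb1 was at 0.0030 ± 0.23 on 10% RPS (adjusted p = 0.996), a value that rested on 0% RPS replicate 2, its highest library. Without that library it was at 0.31 ± 0.18 (adjusted p = 0.283) on 10% RPS and at 0.35 ± 0.18 (adjusted p = 0.269) on 5% RPS, and was not called. H2-DMb2 was at 0.72 ± 0.38 (interval -0.019 to 1.46, adjusted p = 0.278), with counts of 42.8, 43.7, 18.2, 35.0, and 27.0 on 0% RPS and 43.8, 42.7, 79.1, 75.6, and 33.8 on 10% RPS, which overlapped.

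The transcription factors of class II promoters, all 7 analysed, included 0 called by DESeq2 or edgeR in any comparison with all libraries, with 1 of 7 at an unadjusted p under 0.05 on 10% RPS, where 2365 of the 12701 genes were. Their log2 fold changes on 10% RPS ran from -0.095 to 0.14, and the most abundant, Nfyc, Creb1, and Nfya, were at -0.054 ± 0.063, 0.081 ± 0.059, and -0.032 ± 0.074. Rfx5, a subunit of the factor that binds the X box, was at -0.092 ± 0.12. The interferon-gamma pathway, 6 of 8 analysed, also had 0 called by either tool with all libraries. On 10% RPS all 6 estimates were above 0 with all libraries, and 5 of 6 without 0% RPS replicate 2. With all libraries 3 of 6 had an unadjusted DESeq2 p under 0.05 there, in a comparison where 2365 of the 12701 genes did. Its receptor chains Ifngr1 and Ifngr2 were at 0.11 ± 0.065 and 0.025 ± 0.094 (Ifngr2 was at -0.069 without 0% RPS replicate 2). Jak1, a kinase of the receptor, was at 0.10 ± 0.046 (adjusted p = 0.207). Irf1, a target of this pathway that acts on Ciita, was at 0.28 ± 0.10 (adjusted p = 0.0857). The costimulation genes Icosl and Cd274, 2 of 6 analysed, were at -0.0086 ± 0.13 and 0.29 ± 0.17 on 10% RPS and were not called.

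**Figure D5:**
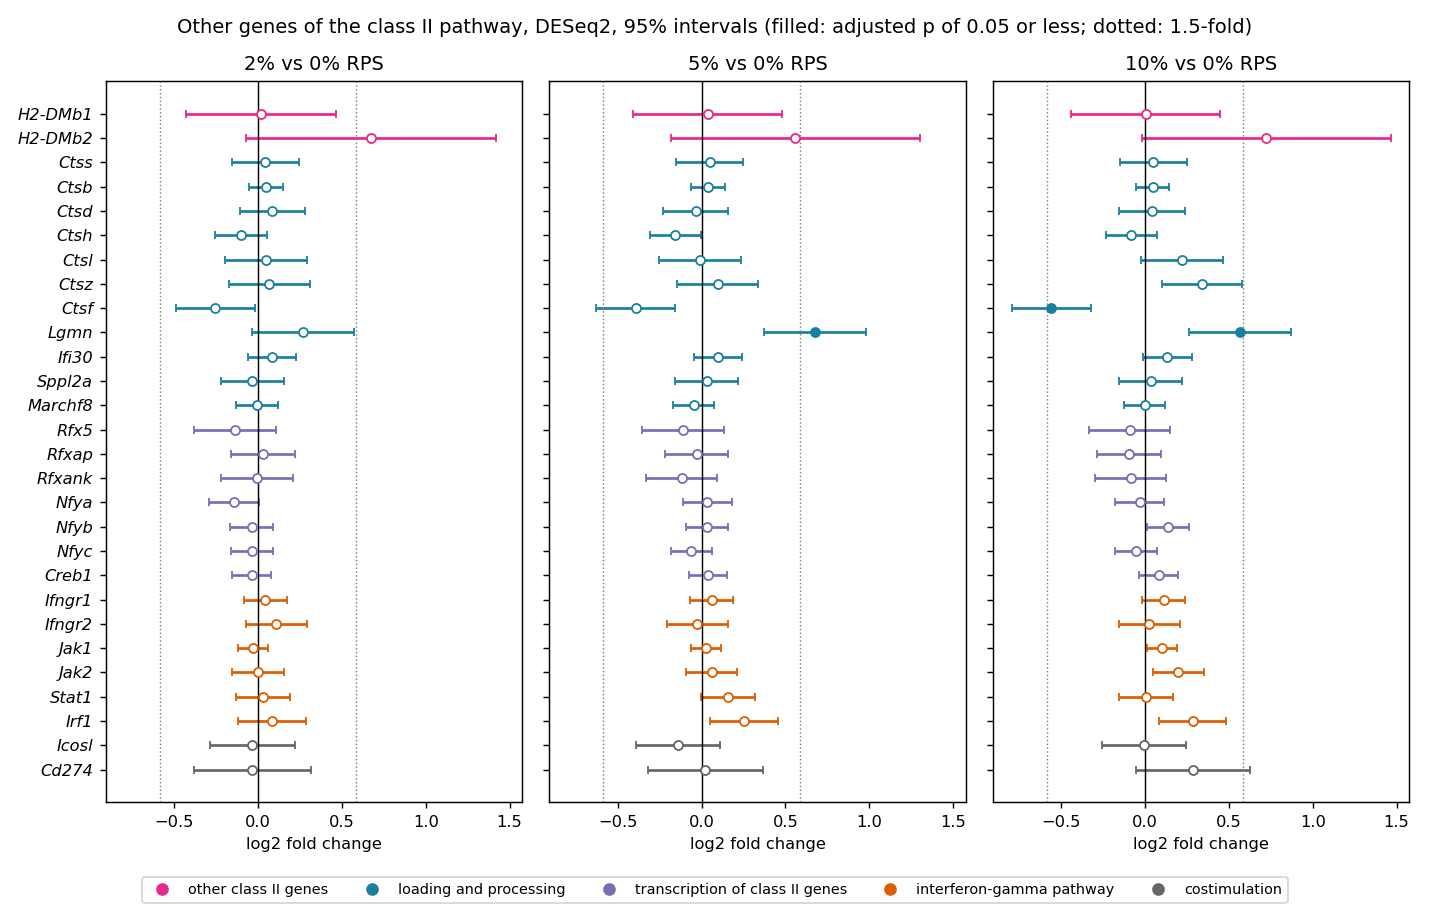
DESeq2 log2 fold changes (x axes) with 95% intervals of 28 other genes of the class II pathway for 2, 5, and 10% RPS against 0% RPS, coloured by list and filled at an adjusted p of 0.05 or less. Lgmn is filled on 5 and 10% RPS and Ctsf on 10% RPS, at -0.56, and the wide intervals of H2-DMb2 cross 0.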

How the data were processed

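The deposited values were whole-number read counts per gene. To make them, the authors removed low-quality bases and ambiguous reads, then mapped and counted the reads in CLC Genomics Workbench on GRCm39. The annotation, the strand setting, the handling of multi-mapped reads, and the rule that left 12701 genes are not given in the sources used here. Counts were not normalised and replicates not pooled before deposition. Libraries were assigned to diets by their labels and numbered within a diet in order. The labels pair no libraries between diets.

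Symbols and coordinates were from GENCODE release 39 for mouse (12682 identifiers matched). Tests followed the study: DESeq2 (version 1.42.0, R version 4.3.3) on 20 libraries with diet as the only term, adjusted p of 0.05 or less and at least 1.5-fold, over genes with an adjusted p. The trend used the percentage as a number with no fold threshold. edgeR (version 4.0.16, quasi-likelihood test, TMM factors) was the alternative, with others described at the end. Intervals are 95% normal intervals from the SE. Both fits were tested on simulated data. Normalised counts are counts over size factors, and CPM are counts per 1000000 of the library total. Correlations were from Python (numpy, scipy). P-values measure the spread between libraries of 1 tissue piece per mouse.

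The members and lists were chosen with earlier results of these data known. Named genes were the members, other H2 genes, pathway genes called in any comparison, the most abundant 3 of each list, and the 10 likest genes over 20 and over 19 libraries. Genes outside this rule, such as Slc26a3, Jchain, Adgre1, Mzb1, Rfx5, Jak1, and Ctsz, were named after their values were seen. The fit with edgeR and without 0% RPS replicate 2 was added after seeing the data.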

Additional observations from a re-analysis of the deposited data

Results flagged for a closer look

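Within each diet, the highest and lowest library of 15 genes (the members, the other H2-DM genes, Lgmn, Ctsf, and 6 marker genes) were compared with the rest by Dixon's ratio, the gap to the nearest library over the whole range, in 60 groups of 5. Chance alone flags about 1 in 20 groups, and libraries shared by genes that vary together are not independent flags. Ratios above the critical value of 0.71 were found 7 times, 6 of them in 0% RPS replicate 2. These are descriptions and no test: the choice of the members had already named that library as their highest, and Jchain and Slc26a3 were taken up after their values were seen.

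For H2-Aa this library was at 3014.5 normalised counts (ratio 0.716), for H2-Ab1 at 2757.3 (ratio 0.716), and for H2-Eb1 at 2821.9 (ratio 0.748). Cd74 and H2-DMa were not flagged in any diet. The same library was at 52144.9 for Igha (ratio 0.952), at 11831.2 for Jchain (ratio 0.917), and at 12364.3 for Slc26a3 (ratio 0.731). The remaining flag was 5% RPS replicate 2 for Slc26a3, at 5886.9 (ratio 0.767). Cook's distance in the DESeq2 fit did not exceed 0.794 for any member, against a cutoff of 4.77, so no member value was replaced or filtered. What set this mouse's segment apart was not tested.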

How the results depend on the processing

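The members' log2 fold changes and trends were computed again with edgeR, TMM factors, a filter of at least 10 counts in 5 libraries, DESeq2's filters off, only the diets compared, and each library left out. Over 30 such settings 0 of 430 fits of a member were called, by DESeq2 or edgeR, and the lowest adjusted p was 0.143. Of 140 values other than the leave-outs, 136 kept their direction and side of the threshold. The 4 that reversed were trends over the 2, 5, and 10% diets alone, at 0.0211 for H2-Aa, 0.0247 for H2-Ab1, 0.0135 for H2-Eb1, and 0.0243 for Cd74, where no control library is used.

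Leaving out 1 library at a time, by DESeq2 and for 0% RPS replicate 2 also by edgeR, gave these ranges. On 2% RPS they were -0.47 to 0.0168 for H2-Aa, -0.43 to 0.0709 for H2-Ab1, -0.44 to 0.0955 for H2-Eb1, -0.11 to 0.0206 for H2-DMa, and -0.48 to 0.0937 for Cd74. On 5% RPS they were -0.43 to 0.0580 for H2-Aa, -0.36 to 0.14 for H2-Ab1, -0.43 to 0.0987 for H2-Eb1, and -0.43 to 0.15 for Cd74. On 10% RPS they were -0.31 to 0.18 for H2-Aa, -0.23 to 0.27 for H2-Ab1, -0.33 to 0.20 for H2-Eb1, and -0.29 to 0.29 for Cd74. Trends ranged from -0.0161 to 0.0189 for H2-Aa, -0.0092 to 0.0262 for H2-Ab1, -0.0201 to 0.0172 for H2-Eb1, and -0.0138 to 0.0268 for Cd74. For H2-DMa they were -0.14 to -0.0115 on 5% RPS, 0.0467 to 0.18 on 10% RPS, and 0.0048 to 0.0179 for the trend, with no reversal. The upper ends were those without 0% RPS replicate 2.

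Of the 28 other pathway genes, the count called on 5% RPS was 1 by DESeq2 and 0 by edgeR. It stayed at 1 in every DESeq2 fit with 1 library left out, and was 0 by edgeR without 0% RPS replicate 2. On 10% RPS it was 0, 2 with no fold threshold, and 0 to 1 over the leave-outs, with Lgmn called without 0% RPS replicate 1 or 4 or 10% RPS replicate 1, and Ctsf without 0% RPS replicate 2 or 3. For the trend it was 2, 1 by edgeR, 1 over the 2, 5, and 10% diets, and 1 to 5 over the leave-outs (4 without 0% RPS replicate 2, 5 without 10% RPS replicate 1, and 1 without 0% RPS replicate 4 or 10% RPS replicate 5). Of the 10 correlations between members, 10 passed over 20 libraries and 6 without 0% RPS replicate 2. No other cause of these shifts was tested. No paired analysis was possible because no replicate number is shared between diets in the labels. Depth did not limit the members, but with 5 mice a diet the intervals held differences of the size seen without 0% RPS replicate 2. Because that library was left out as the highest, those differences are no estimate of a diet effect.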
